A study of Rattus norvegicus with 20 samples.

Results

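The genes of oxidative phosphorylation were measured in primary cultures of neonatal rat heart, labelled as cardiomyocytes, with and without the anti-inflammatory drug diclofenac. Members were the array probes whose gene name starts with Nduf, Uqcr, Cox4 to Cox8 or Atp5, or is Sdha, Sdhb, Sdhc, Sdhd, Cycs or Cyc1. This rule matched 83 of 41012 probes, which stood for 71 of 35535 genes, and all 71 genes passed the filter on dim probes. Of these, 65 encode subunits: 31 of complex I, 3 of complex II, 5 of complex III, 12 of complex IV, 13 of complex V, and cytochrome c. The other 6 matches were counted apart, namely Ndufaf1 (an assembly factor), Cox7a2l (a factor of respiratory supercomplexes), Dmac2l (factor B), Emc8 (a subunit of a complex of the endoplasmic reticulum), the pseudogene Cox6c-ps1, and Cox6b_predicted, whose identity is uncertain because its file description names another gene.

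There were 20 1-colour arrays in 7 groups. Diclofenac was given at reference concentration 1/25, 1/5 or 1 for 24 h, or at the same concentrations for 6 h, with 3 arrays in each of these 6 groups. The untreated cultures had 2 arrays. The series text speaks of a pair of controls and also of 3 replicates for each group. All were primary cultures of neonatal heart, and the labels name no strain or genotype. The molar value of the reference concentration and the time at which untreated cultures were taken are not given in the labels, so against untreated cultures the drug cannot be told apart from culture time. Nothing in the labels ties replicates to separate animals or dishes. The p-values thus cover no more than the scatter of these samples, possibly a technical one. A signal from a whole culture also cannot tell fewer cells of a type apart from less RNA per cell.

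Oxidative phosphorylation passes electrons from NADH through complex I, and from succinate through complex II, to ubiquinone and on through complex III, cytochrome c and complex IV to oxygen. Complexes I, III and IV pump protons out of the mitochondrial matrix, and complex V, the ATP synthase, uses their return to make ATP. Heart muscle is rich in mitochondria and draws most of its ATP from this pathway. Most subunits are encoded in the nucleus, and several subunits of complex IV exist as a heart isoform and a more widely expressed, liver-type isoform.

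The array probes behind the main changes are shown first, because several genes were read by probes at different places and 15 of the 83 member probes hold the polyadenylation hexamer AATAAA or its variant ATTAAA, which lies near the 3′ end of messenger RNAs. For probes with a hexamer the 30 bases around it are given with the hexamer in capitals. For the others the whole probe of 60 bases is given in lower case. All run 5′ to 3′ as in the array files.
Cox5b, with hexamer: aaaacgtctctcAATAAAgactagccaacg
Ndufb2, with hexamer: tcATTAAAggtgtaaATTAAAgtggcttgc
Ndufa7, with hexamer: tagaactgtggaaaacaAATAAAacactaa
Cox5b, other probe: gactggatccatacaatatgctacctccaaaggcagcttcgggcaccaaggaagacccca
Ndufb7: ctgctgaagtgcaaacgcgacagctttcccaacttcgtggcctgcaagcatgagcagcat
Atp5f1a: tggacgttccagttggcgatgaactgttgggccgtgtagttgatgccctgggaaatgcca
Atp5f1b: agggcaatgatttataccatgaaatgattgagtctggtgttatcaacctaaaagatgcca
Uqcrc1: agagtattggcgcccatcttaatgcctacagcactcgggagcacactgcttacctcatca

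On rat build rn3, as the array files give it, the Atp5f1a probe lies on chr18:74812620-74812679 and the Atp5f1b probe on chr7:1378451-1378510. The Uqcrc1 probe lies on chr8:113980899-113980958, the Ndufb7 probe on chr19:26264571-26264630, the Ndufb2 probe on chr4:67382975-67383034 and the Ndufa7 probe on chr7:16334437-16334496. Of the 2 Cox5b probes, the one with the hexamer lies on chr9:35628652-35628712. The other is placed on chr9:35627602-35627823, a span longer than the probe. Each probe was assigned to its gene by the array files, and its place within exons was not analysed here.

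Levels are log2 signals relative to the 75th percentile of the same array, and a change is the difference of such values. Between 64.1 and 88.2% of an array's spots were well above background, and the 75th percentile of the scanner signal was 3165 to 21937. Replicate 3 of 1/5 for 24 h stood apart with 64.1% and 3165. The 12 cardiomyocyte markers were all measured, and 11 of them, among them Tnnt2 and Myh6, were well above background on all 20 arrays, so the labelled cell type had its markers. Markers of other cells were also read, namely 9 of 10 of fibroblasts, 5 of 6 of smooth muscle, 8 of 8 of endothelium, 7 of 8 of leukocytes and 4 of 7 of erythroid cells. The arrays lay on 6 slides of up to 4 arrays. No slide held 24 h and 6 h arrays of the same concentration, and no 24 h array shared a slide with an untreated one, so in these comparisons slide and group cannot be told apart. The untreated arrays and the 6 h arrays of 1/5 and 1 were scanned on the first of 3 scan days and all 24 h arrays on later ones, so scan day cannot be told apart from group there either. At 1/25, where a scan day held both times, the median change of the members between 24 h and 6 h was 0.64 with scan day as a block, an alternative chosen after seeing the data. Only replicate 1 of 1/25 for 24 h was scanned on that day, so this value rests on 1 array at 24 h against 3 at 6 h. On that 24 h array 72.4% of spots were well above background.

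The first question was how the members differed between 24 h and 6 h of diclofenac. Over the 3 concentrations, with 9 arrays at each time, 6 members rose and 4 fell. Cox5b, the zinc-binding subunit of complex IV, rose by 1.13 ± 0.32 on the log2 scale (SE, adjusted p = 0.0258), and the complex I subunits Ndufb2 and Ndufa7 by 1.10 ± 0.35 and 1.08 ± 0.36. Atp5f1a, the alpha subunit of the catalytic head of ATP synthase, fell by 1.83 ± 0.62 (adjusted p = 0.0456), and Uqcrc1, a core protein of complex III, fell by 1.06 ± 0.34 (adjusted p = 0.0378). The 10 called members were 14.1% of 71, whereas 21.1% of all 30504 genes were called in this comparison. The 6 that rose stand against 7.7% of all genes, and the 4 that fell against 13.4%. The share of members called was thus below that of all genes in this fit. It was above it without replicate 2 of 1/5 for 24 h (53.5% against 44.2%), with array weights (77.5% against 69.9%), with slide as a random block (49.3% against 48.7%) and from the deposited table (47.9% against 36.4%). At an unadjusted p under 0.05 there were 28 members, 23 higher and 5 lower, with 41.1% of all genes below that p.

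These calls depended on single arrays, and so did those of all genes, whose share called ran from 7.62 to 44.2% over the same refits. The count was 1 without replicate 1 of 1/25 for 24 h, replicate 2 of 1 for 24 h or replicate 1 of 1/25 for 6 h. It was 2 without replicate 3 of 1/25 for 24 h, of 1/25 for 6 h or of 1 for 6 h, and 3 without replicate 1 or 3 of 1/5 for 6 h or replicate 1 or 2 of 1 for 6 h. It was 4 without replicate 1 of 1/5 for 24 h or replicate 3 of 1 for 24 h, and 5 without replicate 2 of 1/5 for 6 h. It was 15 without replicate 3 of 1/5 for 24 h or replicate 2 of 1/25 for 6 h, 18 without replicate 2 of 1/25 for 24 h, and 38 without replicate 2 of 1/5 for 24 h. Ndufb7 was called with each of the 18 arrays left out in turn. With the share of spots well above background as a covariate the count was 0, and all genes then had 3.31% called.

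By complex, most subunits had a higher mean at 24 h than at 6 h, apart from those of F1, the part of complex V made of Atp5f1a to Atp5f1e. In complex I 27 of 31 subunits had a change above 0, with a median of 0.52 and a range from -0.42 (Ndufs1) to 1.10 (Ndufb2), and 3 were called, all higher. The 7 core subunits, which carry the redox centres or bind ubiquinone, had a median of 0.51 and no calls, and the 24 supernumerary subunits a median of 0.54. In complex IV 10 of 12 were above 0 with a median of 0.49, and in complex III 4 of 5 with a median of 0.38. In complex V 8 of 13 were above 0 with a median of 0.32. Over all 71 members 57 were above 0, or 80.3% against 45.4% of all genes, and the median was 0.48, with quartiles of 0.11 and 0.65, against -0.09 for all genes. Without replicate 3 of 1/5 for 24 h the members' median was 0.26, and with quantile normalization it was 0.15 against 0.02 for all genes. The probes of Ndufb3, Ndufc2, Cox7a2, Atp5pb and Atp5po were saturated on all 20 arrays, so their differences carry neither a fold nor a direction. These 5 genes are nonetheless among those counted above 0, with differences of 0.44 to 0.55. They are part of the counts and medians given here and below, except where saturated spots were left out. The other probe of Ndufc2, never saturated, had a difference of -0.43. The chosen probe of 31 of the 71 members was saturated on at least 1 array. With saturated spots left out the median was 0.38 over 55 members, against -0.19 for all genes.

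**Figure D1:**
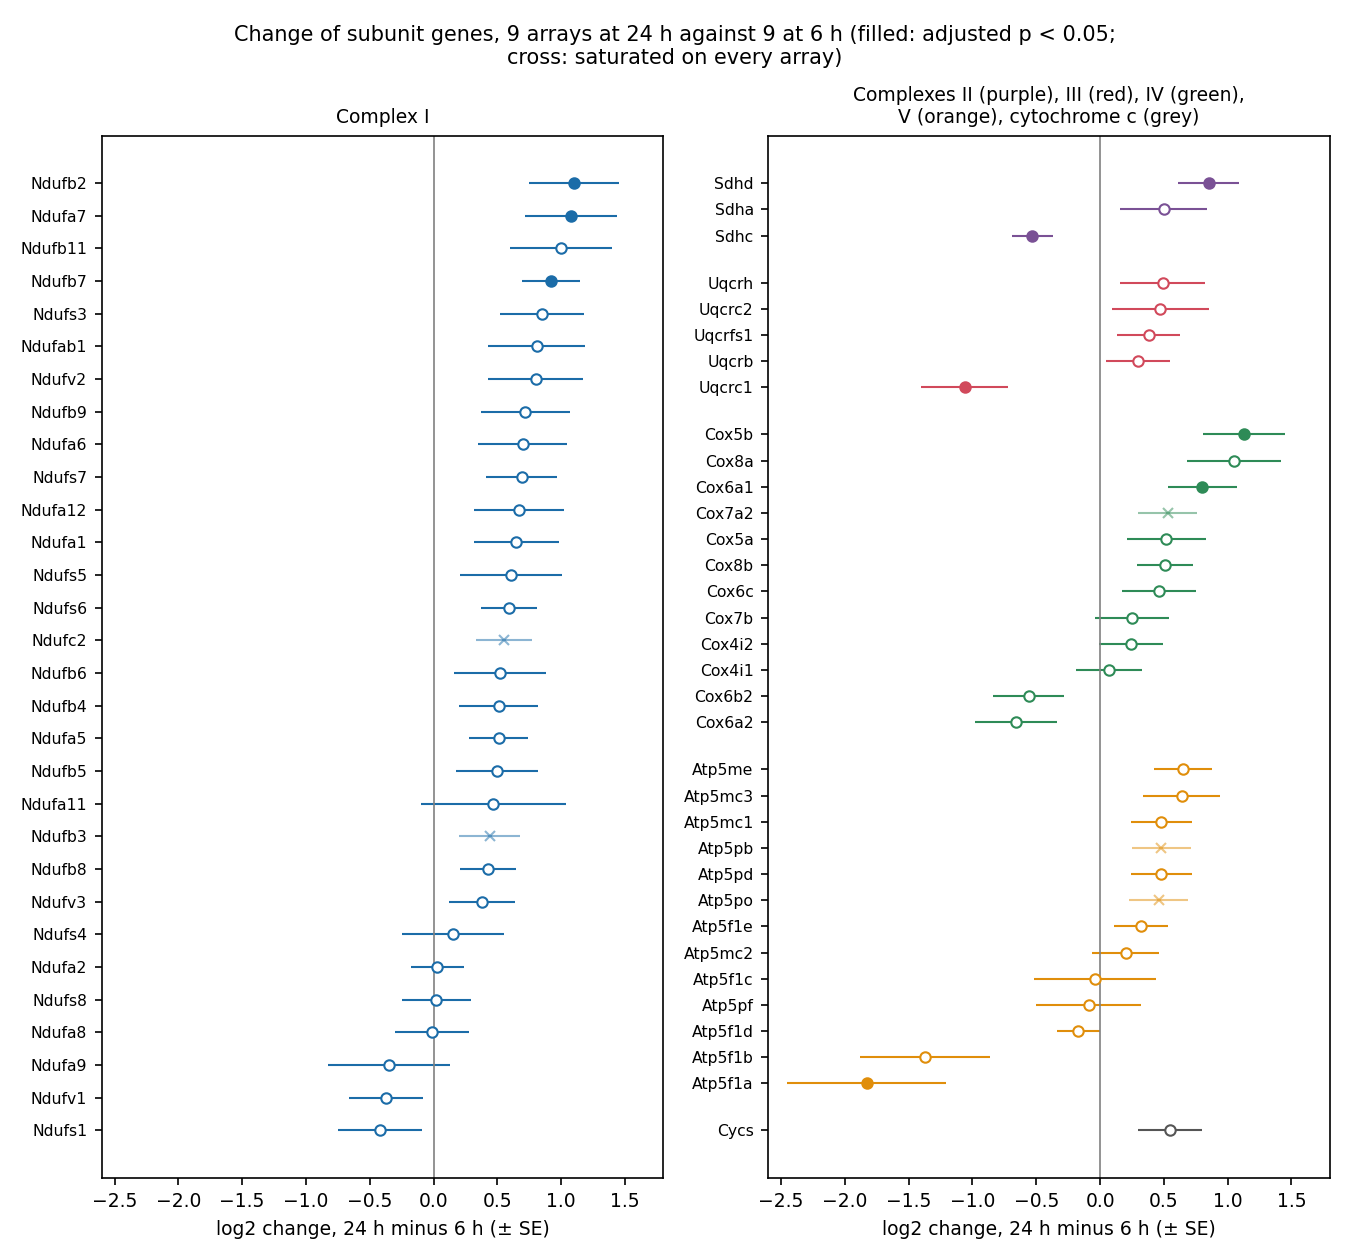
Log2 change of the subunit genes reported here between 9 arrays at 24 h and 9 at 6 h, with its SE, ordered within complexes. Points right of 0 are higher at 24 h, and filled points were called. Crosses mark the 5 genes whose probe was saturated on every array, so their side of 0 carries no direction. Most points of complex I lie right of 0, and Atp5f1a, Atp5f1b and Uqcrc1 lie farthest to the left.

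Among members of complex I, Ndufb7, an accessory subunit of the membrane arm, had the smallest p. Its levels at 24 h were 1.76, 1.08 and 2.29 at 1/25, then 1.82, 1.14 and 2.55 at 1/5, and 0.49, 1.26 and 0.77 at 1. At 6 h they were 0.65, 1.45 and 0.26 at 1/25, then 0.38, 0.26 and 0.66 at 1/5, and 0.39, 0.33 and 0.49 at 1. Untreated cultures had 0.69 and 0.22. The times overlapped at 1/25 through replicate 2 of the 6 h group, and all arrays at 24 h were above those at 6 h at 1/5. The change over concentrations was 0.92 ± 0.23 (adjusted p = 0.018). Ndufb2, also of the membrane arm, ran from 0.72 through a median of 1.89 to 4.46 at 24 h, against 0.44, 0.91 and 1.75 at 6 h (adjusted p = 0.0394). Ndufa7, an accessory subunit of the matrix arm, ran from 0.31 through 1.20 to 4.08 at 24 h, against -0.34, 0.20 and 1.12 at 6 h (adjusted p = 0.043). Their highest values were on replicate 3 of 1/5 for 24 h. The Ndufb2 probe was saturated on 3 arrays. Ndufb11 had a change of 1.00 ± 0.40 that did not pass (adjusted p = 0.0798).

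Both membrane anchors of complex II, which links the citric acid cycle to the respiratory chain, were called, in opposite directions. Sdhd had levels of 2.48, 1.60 and 2.20 at 1/25, then 2.28, 1.55 and 3.34 at 1/5, and 1.18, 1.87 and 1.63 at 1, all for 24 h. For 6 h it had 1.23, 2.08 and 1.53 at 1/25, then 1.16, 0.45 and 1.07 at 1/5, and 1.02, 1.20 and 0.73 at 1. Sdhd rose by 0.85 ± 0.24 (adjusted p = 0.024), with overlap between the times. Sdhc had 1.00, 1.66 and 1.07 at 1/25, then 0.97, 1.46 and 1.48 at 1/5, and 1.48, 0.65 and 1.20 at 1 for 24 h. For 6 h it had 1.61, 1.44 and 1.61 at 1/25, then 1.78, 1.81 and 1.91 at 1/5, and 1.79, 1.95 and 1.86 at 1. Sdhc fell by 0.53 ± 0.16 (adjusted p = 0.0333), and all arrays at 24 h were below those at 6 h at 1/5 and at 1. Its probe was saturated on all 3 arrays of 1 for 6 h, so at that concentration the fall is a lower bound on its size. Sdha, the flavoprotein that oxidises succinate, had a change of 0.50 that did not pass.

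Uqcrc1 was the member of complex III that was called. At 24 h it had -2.43, -0.57 and -2.52 at 1/25, then -2.74, -0.92 and -2.38 at 1/5, and -0.99, -2.13 and -0.86 at 1. At 6 h it had -0.27, -1.34 and -0.36 at 1/25, then -0.68, -1.52 and -0.07 at 1/5, and -0.76, -0.67 and -0.35 at 1. Untreated cultures had -0.30 and -1.05. At 24 h, 5 of the 9 arrays were below -2, and the others lay within the range of 6 h. The other members of complex III, Uqcrh, Uqcrc2, Uqcrfs1 and Uqcrb, were between 0.30 and 0.49 higher at 24 h and did not pass.

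In complex IV Cox5b and Cox6a1 rose. Cox5b had 2.54, 1.73 and 2.41 at 1/25, then 2.74, 1.72 and 4.43 at 1/5, and 0.88, 2.17 and 1.69 at 1 for 24 h. For 6 h it had 0.99, 2.12 and 0.66 at 1/25, then 0.89, 0.96 and 1.31 at 1/5, and 1.11, 0.95 and 1.15 at 1, with 1.55 and 0.66 in untreated cultures. The 3 arrays of 1/5 for 24 h lay above those of 1/5 for 6 h, and at 1/25 and 1 the times overlapped. The Cox5b probe used was saturated on 4 arrays at 24 h and 0 at 6 h. The other Cox5b probe, which was never saturated, was 1.29 higher at 24 h than at 6 h (1.97 against 0.68). The isoforms of subunit VIa had changes of opposite sign. Cox6a1, the widely expressed form, averaged 2.31 ± 0.93 at 24 h and 1.51 ± 0.26 at 6 h (SD, n = 9 each), and rose by 0.80 ± 0.27 (adjusted p = 0.0453). The Cox6a1 probe was saturated on 5 arrays at 24 h and 1 at 6 h. Cox6a2, the form of heart and skeletal muscle, averaged 0.09 ± 0.91 at 24 h and 0.75 ± 0.45 at 6 h, a change of -0.66 ± 0.32 that did not pass (adjusted p = 0.132). Whether the changes of Cox6a1 and Cox6a2 differ was not tested.

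The other isoform pairs of complex IV were not called. Cox8a, the widely expressed form of subunit VIII, averaged 1.97 ± 1.18 at 24 h and 0.92 ± 0.43 at 6 h (change 1.05 ± 0.37, adjusted p = 0.0511). Cox8b, the heart form in rodents, averaged -0.03 ± 0.60 at 24 h and -0.54 ± 0.51 at 6 h (change 0.51 ± 0.22, adjusted p = 0.09). Cox4i1 averaged 1.72 ± 0.78 at 24 h and 1.64 ± 0.23 at 6 h, and Cox4i2, the form known from lung, 0.88 ± 0.67 at 24 h and 0.65 ± 0.31 at 6 h (changes 0.07 ± 0.26 and 0.24 ± 0.25). The Cox4i1 probe was saturated on all arrays of 1/25 for 6 h and of 1 for 24 h, so its means there are bounds. Cox7a2 was saturated throughout. Cycs, the soluble carrier between complexes III and IV, averaged 2.55 ± 0.88 at 24 h and 2.00 ± 0.21 at 6 h (change 0.55 ± 0.25, adjusted p = 0.111), and its 2 other probes differed by 0.58 and 0.41.

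In complex V the alpha and beta subunits of the catalytic head had the lowest changes of all members. Atp5f1a (Atp5a1 in the array files) had -2.21, 1.59 and -2.62 at 1/25, then -2.17, 0.68 and -1.57 at 1/5, and 1.00, -2.65 and -0.06 at 1 for 24 h. For 6 h it had 1.59, -1.16 and 0.71 at 1/25, then 0.90, 0.27 and 1.74 at 1/5, and 1.18, 1.33 and 1.92 at 1, with 1.26 and 1.11 in untreated cultures. Its 9 levels at 24 h thus fell apart into 5 below -1.5 and 4 from -0.06 to 1.59, which lay within the range of 6 h. The same 5 arrays held the 5 lowest levels of Uqcrc1 and the 5 highest 24 h levels of Cox5b, Ndufb2 and Sdhd. So these members did not change independently of each other. On these 5 arrays the median of all genes was -2.04 to -1.69, against -1.54 to -1.43 on the 4 other 24 h arrays. Why they went together was not tested. The array of 6 h with the lowest value was replicate 2 of 1/25, on which 75.1% of spots were well above background. It also had the lowest median of all genes at 6 h (-1.72) and the highest 6 h levels of Cox5b (2.12) and Sdhd (2.08). Atp5f1b (Atp5b in the array files), the beta subunit with the catalytic sites, had -1.93, 1.48 and 0.90 at 1/25, then -0.65, 0.73 and -3.85 at 1/5, and 1.54, 0.64 and 1.30 at 1 for 24 h. All 9 of its levels at 6 h were between 0.87 and 1.89. Its change of -1.37 ± 0.51 did not pass (adjusted p = 0.0644). Outside F1, 7 of 8 subunits of complex V were above 0 with a median of 0.48, and within F1 1 of 5 with a median of -0.17. The 7 include Atp5pb and Atp5po, whose probes were saturated on every array. The other F1 subunits, Atp5f1c, Atp5f1d and Atp5f1e, changed by -0.04, -0.17 and 0.32. Atp5f1c had -4.68 on replicate 3 of 1/5 for 24 h, and its median was -0.34 at 24 h against -0.65 at 6 h. The Atp5f1d probe was saturated on 4 arrays at 24 h and 8 at 6 h, so the sign of its change is uncertain. Without replicate 3 of 1/5 for 24 h, 2 of the 5 were above 0 and their median was -0.10.

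**Figure D2:**
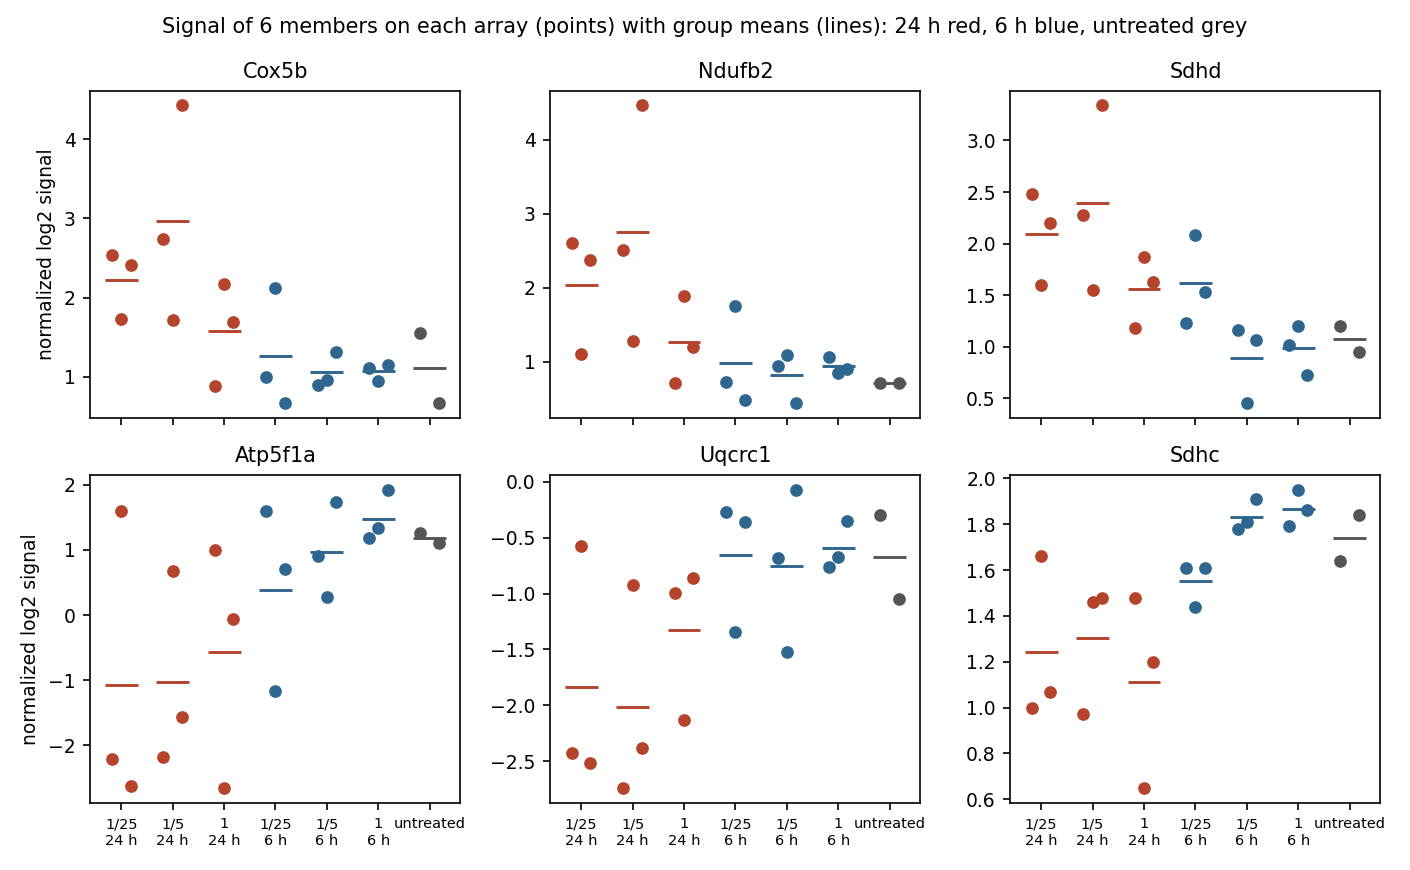
Normalized log2 signal of 6 called members on each array (points) with group means (lines), by concentration at 24 h, at 6 h and in untreated cultures. Cox5b, Ndufb2 and Sdhd reach their highest values on replicate 3 of 1/5 for 24 h (4.43, 4.46 and 3.34), and Atp5f1a and Uqcrc1 split into low and high arrays within each 24 h group.

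Of the 6 matches that are not subunits, Cox6b_predicted was called and fell by 0.73 ± 0.25 (adjusted p = 0.0442), and the other 5 had changes above 0, up to 0.75 for Ndufaf1, none of which passed. Of the 71 members 0 had all arrays at 24 h outside the range of those at 6 h, against 0.59% of all genes.

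At single concentrations no member passed in the same fit. Between 24 h and 6 h at 1/25, 0 of 71 members passed (0% of all genes) and 3 had an unadjusted p under 0.05 (9.91% of all genes), with a median change of 0.48 against -0.01 for all genes. At 1/5, 0 members passed (0.0983% of all genes) and 35 had an unadjusted p under 0.05 (33% of all genes), 33 of them higher, with a median of 1.02 against -0.09. At 1, 0 members passed (0.233% of all genes) and 3 had an unadjusted p under 0.05 (13.8% of all genes), all lower (Sdhc, Cox6b2 and Cox6b_predicted), with a median of -0.02 against -0.09. Without replicate 2 of 1/5 for 24 h, 41 members passed at 1/5 (57.7%, against 38.4% of all genes). The median at 1/5 was 0.37 without replicate 3 of that group.

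The members that fell over concentrations had changes below 0 at each one. For Atp5f1a they were -1.46 at 1/25, -1.99 at 1/5 and -2.04 at 1, and for Uqcrc1 -1.18, -1.26 and -0.73 in the same order. Those of Sdhc were -0.31, -0.53 and -0.76. The members that rose had their highest change at 1/5 and their lowest at 1, except Ndufa7 and Sdhd. Cox5b changed by 0.97 at 1/25, 1.91 at 1/5 and 0.51 at 1, and Ndufb7 by 0.92, 1.41 and 0.43. Sdhd changed by 0.48, 1.50 and 0.58, and Ndufa7 by 0.55, 2.04 and 0.64. Whether the time change differs between concentrations 1 and 1/25 was tested by the interaction. It gave 0 members past the threshold (0% of all genes) and 3 with an unadjusted p under 0.05 (2.57% of all genes), with a median of -0.48 against -0.09.

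Each treated group was also compared with the same 2 untreated arrays, so these comparisons share their controls. At 6 h the members' median changes from untreated cultures were near 0. The median SE of a change against untreated cultures was 0.55, so a lack of calls does not show a lack of change. Single subunits changed by -0.81 to 1.18 at 1/25 and by -1.33 to 0.43 at 1/5. At 1/25, 0 members passed (0% of all genes) and 0 had an unadjusted p under 0.05 (1.16% of all genes), with a median change of 0.02 against -0.07 for all genes. At 1/5, 0 passed (0% of all genes) and 1, Cox6b2, which was lower, had an unadjusted p under 0.05 (1.09% of all genes), with a median of -0.03 against 0.02. At 1, 0 passed (0.00656% of all genes) and 0 had an unadjusted p under 0.05 (1.48% of all genes), with a median of -0.04 against 0.01. The highest change at 1 was that of Ndufs4, an accessory subunit of the matrix arm of complex I, with -4.48 ± 1.08 at 6 h (SD, n = 3) and -5.30 ± 0.03 untreated (SD, n = 2), and the lowest was -0.37 for Cycs. The others at the upper end were Cox6b_predicted, Emc8, Ndufv3 and Cox8b, and at the lower end Uqcrh, Atp5mc1, Cox6a1 and Ndufc2. Within the slide that held both untreated arrays and 2 arrays of 1 for 6 h the median change was 0.03.

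At 24 h, 0 members passed at 1/25 (0.00328% of all genes) and 4 had an unadjusted p under 0.05 (13.4% of all genes), all higher. The median change was 0.41 against -0.13 for all genes, and 60 of 71 members were above 0. At 1/5, 0 passed (0.184% of all genes) and 30 had an unadjusted p under 0.05 (30.4% of all genes), 27 higher and 3 lower, with a median of 1.03 against -0.12. Without replicate 2 of 1/5 for 24 h, 43 members passed (60.6%, against 35.3% of all genes), and without replicate 3 the median was 0.38. At 1, 0 passed (0.00328% of all genes) and 1 had an unadjusted p under 0.05 (4.56% of all genes), with a median of -0.09 against -0.10. That member was Ndufs4, with -3.63 ± 0.90 (SD, n = 3) at 24 h and -5.30 ± 0.03 (SD, n = 2) untreated, a change of 1.67 ± 0.78 (adjusted p = 0.999). Its probe was among the dimmest of the members. The lowest changes at 1 for 24 h were -1.76 for Atp5f1a and -1.12 for Ndufs1, the largest iron-sulfur subunit of complex I, followed by Cox6b2, Atp5pf and Uqcrc1. Other members at the upper end were Atp5mc3, Ndufb2 and Emc8.

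By complex, the medians at 1/25 for 24 h against untreated cultures were 0.51 in complex I, 0.40 in II, 0.36 in III, 0.49 in IV and 0.39 in V. At 1/5 for 24 h they were 1.12, 1.16, 1.02, 1.05 and 0.81 in the same order, and at 1 for 24 h 0.04, -0.09, -0.22, -0.11 and -0.13. The values at 1/5 leaned on replicate 3 of that group, the array with the lowest signal. Without it the median over all members at 1/5 was 0.38. F1 of complex V went the other way at 1/5, with a median of -0.97 over its 5 subunits and -2.59 for Atp5f1b. The 8 other subunits of complex V were all above 0 with a median of 0.97, among them Atp5pb and Atp5po, saturated on every array. Without replicate 3 of 1/5 for 24 h the median of F1 was 0.04, with 3 of 5 subunits above 0.

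Between concentrations 1 and 1/25, over both times, 0 members passed (0% of all genes) and 3 had an unadjusted p under 0.05 (7.63% of all genes), all lower. The median was -0.27 against 0.11 for all genes, and 9 of 71 members were above 0. The test for any difference among the 7 groups called 0 members (0.695% of all genes), and 10 had an unadjusted p under 0.05 (21.5% of all genes). The lowest p within each complex were those of Ndufb7 (0.00827, adjusted p = 0.154), Cox6b2, the testis form of subunit VIb, whose levels ran from -6.64 to -2.93 (0.00986), Sdhd (0.0149), Atp5mc1, one of 3 genes for the membrane ring of complex V (0.015), and in complex III Uqcrc1 (0.113). Without replicate 2 of 1/5 for 24 h this test called 11 members (15.5%, against 14.7% of all genes).

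The median level of the members was between 0.45 and 1.42 on 19 arrays and 3.26 on replicate 3 of 1/5 for 24 h, the array with the lowest signal. On that array 24 member probes were saturated, the most of any array, and the medians of the complexes were between 2.95 and 3.92. The other arrays with a median above 1 were replicate 1 of 1/5 for 24 h (1.15, with 76.5% of spots well above background) and replicates 1, 2 and 3 of 1/25 for 24 h (1.26, 1.07 and 1.42, with 72.4, 84.3 and 82.0%). Their 75th percentiles, from 9623 to 13103, were below those of all 6 h and untreated arrays, the lowest of which was 14579. Replicate 2 of 1/5 for 24 h and replicate 2 of 1 for 24 h also lay below it, at 13095 and 14356, with member medians of 0.74 and 0.77. The summed signal of the cardiomyocyte markers was 27.8 to 32.3 at 1/25, 28.0 to 103 at 1/5 and 16.3 to 23.4 at 1 for 24 h, against 20.4 to 25.9 for 6 h and 20.5 to 24.5 in untreated cultures. That of the fibroblast markers was 17.2 to 21.2, 16.9 to 82.6 and 11.0 to 15.5 for 24 h, against 13.2 to 17.3 for 6 h and 14.9 to 17.8 in untreated cultures. Of single markers between 24 h and 6 h over concentrations, 1 rose and 3 fell among the 12 of cardiomyocytes (median change 0.34), and 1 rose and 1 fell among the 9 of fibroblasts (median -0.04). Of smooth muscle 0 rose and 2 fell (median -0.79), of endothelium 2 rose and 1 fell (0.10), of leukocytes 2 rose and 1 fell (-0.61), and of erythroid cells 0 rose and 2 fell (-0.98). The part of array signal and of cell types in the members' changes was not tested.

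**Figure D3:**
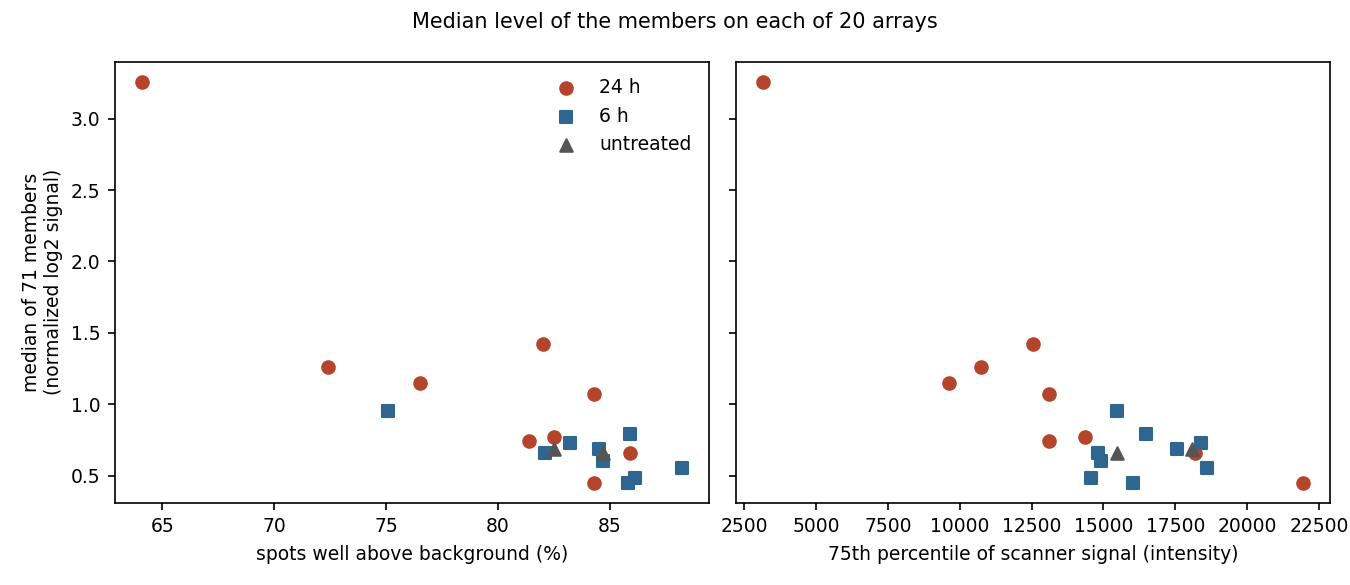
Median normalized log2 signal of the 71 members on each of 20 arrays, against the share of spots well above background (left) and the 75th percentile of scanner signal (right). The array at the upper left, replicate 3 of 1/5 for 24 h, has a median of 3.26, and the 19 other arrays lie between 0.45 and 1.42.

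Most members were bright genes, and the brightest genes as a whole were higher at 24 h at 1/25 and 1/5 but not at 1. When all genes were put in 5 bins of equal size by mean signal over the 20 arrays, 60 of 71 members fell in the 2 brightest bins. In the brightest bin the median change between 24 h and 6 h over concentrations was 0.50 for 32 members against 0.40 for all 6102 genes of the bin. In the next bin it was 0.52 for 28 members against 0.06 for all its genes, and in the middle bin -0.01 for 7 members against -0.21. The gap between members and all genes was thus smaller in the brightest bin than in the next one. At 1/5 alone the medians of that next bin were 1.09 for members and 0.04 for all genes. The mean signal that set the bins includes the arrays compared, and the part of brightness in the changes was not tested. These bins were chosen after the data were seen and carry no test.

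**Figure D4:**
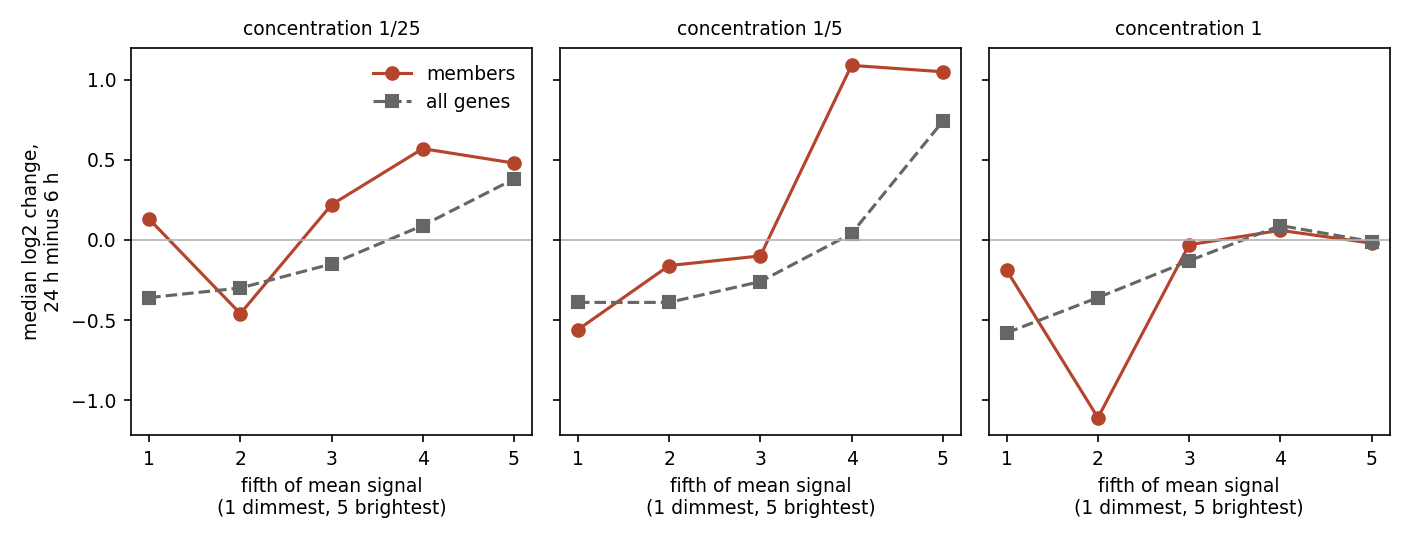
Median log2 change between 24 h and 6 h at each concentration, in 5 bins of mean signal, for the members and for all genes. At 1/5 the brightest bin had 1.05 for members and 0.74 for all genes, and at 1 it had -0.02 and -0.01. Each of the 2 dimmest bins holds 2 members.

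GC content of the probe was the next property. Member probes that stood for a gene had a median GC content of 45%, from 25 to 60%, against a median of 43.3% over all genes. For the 27 members with the lowest GC content (25 to 41.7%) the median change between 24 h and 6 h over concentrations was 0.51, against 0.16 for all genes in that range. For the 23 members between (43.3 to 45%) it was 0.52 against -0.23, and for the 21 with the highest (46.7 to 60%) 0.07 against -0.33. Over the 71 members GC content and change had a Pearson r of -0.26 and over all 30507 genes -0.22, across genes that share the same arrays.

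The polyadenylation hexamer was more frequent in member probes, with 15 of 83 probes (18.1%) against 6.92% of all kept probes. All 15 had a 24 h mean above their 6 h mean, by 0.32 to 1.13 with a median of 0.51. Among them the Ndufb3 probe was saturated on all 20 arrays, and those of Ndufa5, Ndufb8 and Atp5pd on 16, 16 and 10. Of the 68 member probes without the hexamer 51 were higher at 24 h, with a median of 0.47 and a range from -1.83 to 1.29. Over all kept probes the median difference was 0.20 with the hexamer and -0.17 without, and 60% and 41.6% of them were higher at 24 h. Of the 6 members that rose, Cox5b, Ndufb2 and Ndufa7 were read by probes with the hexamer, as shown in the sequences above, and of the 4 that fell none was. Probes of one gene also differed from each other. The 3 probes of Uqcrb had differences of 1.21, 0.76 and 0.30, the last with saturation on 15 arrays. The 2 probes of Ndufc2 had 0.55, saturated on all 20 arrays, and -0.43, never saturated. Those of Ndufa9 had -0.52 and -0.35. This property was looked at after the changes were known, and its part in them was not tested.

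**Figure D5:**
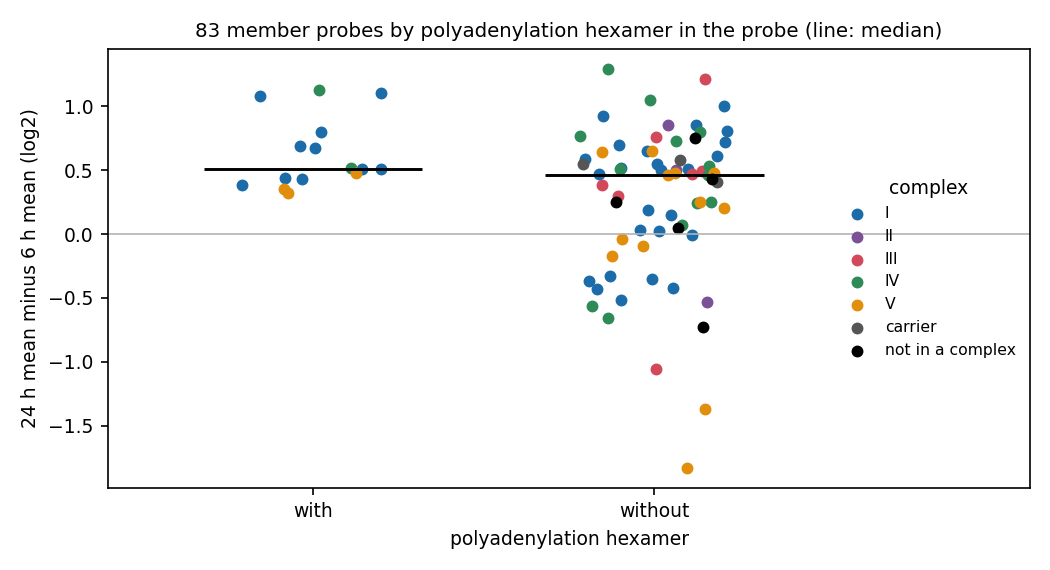
Difference between the 24 h and 6 h means of each of 83 member probes, with and without a polyadenylation hexamer in the probe, coloured by complex. The 15 probes with it lie between 0.32 and 1.13, and the probes without it between -1.83 and 1.29.

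Many nuclear genes of this pathway are known targets of the factors NRF1, GABP (an ETS factor) and the estrogen-related receptors. Promoters from RefSeq (build GRCr8, 250 bases before to 50 after the start) were found for 61 of 71 members and were searched on both strands. The NRF1 core CGCATGCG was present in 7 of 61 member promoters (11.5%) and in 1.66% of all 33469, and the ETS core CCGGAAG in 18 (29.5%) and 8.75%. The receptor site TCAAGGTCA was present in 2 (3.28%) and 0.433%. The 250 bases before the start are shown for one called member of each direction, with the core of NRF1 (Uqcrc1) or ETS (Cox5b) in capitals.
Cox5b, rose, chr9:46417587-46417836, plus strand: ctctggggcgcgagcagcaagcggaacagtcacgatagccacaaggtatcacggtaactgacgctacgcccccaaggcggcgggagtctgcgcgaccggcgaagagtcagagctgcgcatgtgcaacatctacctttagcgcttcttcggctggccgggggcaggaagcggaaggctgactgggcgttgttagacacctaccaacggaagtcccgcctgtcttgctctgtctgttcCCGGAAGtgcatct
Uqcrc1, fell, chr8:118467973-118468222, plus strand: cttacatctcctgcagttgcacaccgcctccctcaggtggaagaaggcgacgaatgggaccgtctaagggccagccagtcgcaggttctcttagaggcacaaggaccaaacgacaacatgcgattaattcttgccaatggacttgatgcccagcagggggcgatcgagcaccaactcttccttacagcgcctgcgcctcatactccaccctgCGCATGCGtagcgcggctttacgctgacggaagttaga
The median change between 24 h and 6 h over concentrations was 0.51 for the 18 members with the ETS core against 0.48 for the 43 without, and 0.46 for the 7 with the NRF1 core against 0.49 for the 54 without. A match is a description of the letters only, and binding was not measured.

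Other genes of mitochondrial energy metabolism were counted in the comparison of 24 h with 6 h over concentrations. Of 33 measured assembly factors of the complexes 5 rose and 4 fell, with a median of 0.16. Among them Coa5, needed to assemble complex IV, rose by 1.53 ± 0.45 (adjusted p = 0.0302), and Ndufaf5, which modifies a complex I subunit, by 1.51 ± 0.44 (adjusted p = 0.028). Of 10 genes of coenzyme Q synthesis 0 rose and 3 fell, with a median of -0.45. Coq8a, an atypical kinase of that pathway, fell by 1.32 ± 0.36 (adjusted p = 0.0213), and its relative Coq8b had a change of -2.22 ± 0.90 that did not pass (adjusted p = 0.0804). Of 11 genes for transfer of ADP, ATP, phosphate and energy 0 rose and 2 fell, with a median of 0.11. Vdac1, the main channel of the outer membrane, had -0.65 ± 1.92 at 24 h and 1.39 ± 0.42 at 6 h (SD, n = 9 each) and fell by 2.03 ± 0.58 (adjusted p = 0.0258). Ucp2, an inner membrane carrier, had a change of -1.66 ± 0.63 (adjusted p = 0.0668).

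Of 14 regulators of mitochondrial biogenesis 1 rose and 3 fell, with a median of -0.11. The coactivator Pprc1 fell by 1.70 ± 0.52 (adjusted p = 0.0337), and the nuclear receptor Esrrg had a change of -1.54 ± 0.63 that did not pass (adjusted p = 0.0839). Of 16 genes of the citric acid cycle and its entry by pyruvate dehydrogenase 2 rose and 2 fell, with a median of 0.25. Mdh2, mitochondrial malate dehydrogenase, had a change of -1.27 ± 0.54 (adjusted p = 0.0927). The 13 subunits encoded in mitochondrial DNA had no probe under their gene symbols. These counts stand against 7.7% of all genes called higher and 13.4% called lower.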

How the data were processed

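The RNA of 20 samples was amplified with a low-input linear kit, labelled with Cy3 and hybridised to rat arrays, per the labels. The authors deposited scanner intensity values that Feature Extraction 9.5.3.1 had corrected for background and detrended within each array, per the file headers, with no scaling between arrays. The deposited table holds a ratio. It matched each array's processed signal over its median and over the untreated mean within 0.05 (log2) for at least 99.5% of probes, and was used as an alternative.

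The members and lists were chosen with earlier results of these data known. The log2 of the processed signal was taken less its 75th percentile on the array, outlier spots were left out and saturated spots kept. Probes well above background throughout 1 or more groups were kept (35069 of 41012), with the brightest of each gene used for it (30507 genes). One limma fit (version 3.58.1, R 4.3.3) over 20 arrays gave all comparisons; p-values were two-sided, adjusted after Benjamini and Hochberg across all genes tested, and called under 0.05. On simulated data the comparison of 24 h with 6 h over concentrations recovered 17%, 85% and 97% of log2 changes of 1, 2 and 3 among 200 of 30507 genes. The simulated noise was independent for each gene and array. In the data 21.1% of all genes were called in that comparison, so recovery there may differ. Precision is limited by how few arrays there are, and the members' median SE was 0.29 in that comparison.

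Samples were grouped by their titles. Of 190 array pairs 0 held identical values. Replicate numbers did not pair samples: the median correlation of deviations was -0.0398 over 57 same-numbered pairs and 0.0424 over 114 others. Members named are those called, the smallest p of the test over 7 groups in each complex, the 5 highest and 5 lowest changes in 3 comparisons, the isoform pairs and Cycs. Symbols were updated through a RefSeq gene table. Positions are on rn3, promoters on GRCr8. Alternatives covered background correction, normalization, filters, saturation, GC content, slide, scan day, replicate number, array quality and single arrays left out. Python 3.11.15 with pandas 2.3.3 and matplotlib 3.10.9 made tables and figures. Results for a few genes are not reported here.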

Additional observations from a re-analysis of the deposited data

How the results depend on the processing

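For the 24 h against 6 h comparison over concentrations the 10 members called became 16 with GC-bin centring, 34 from the deposited table, 35 with slide as a random block and 55 with array weights. They became 5 of 55 members tested with saturated spots left out (all genes 22.5%), 5 in a fit of only the groups compared (17%), and 0 with the share of spots well above background as a covariate (3.31%). With saturated spots left out those called were Ndufa7, Ndufb7, Sdhd, Uqcrc1 and Cox6b_predicted, whereas Cox5b, Cox6a1, Ndufb2 and Atp5f1a were not. Cyclic loess gave 5 (17%) and a fit of only arrays with at least 80% of spots well above background gave 3 (15%), both chosen after seeing the data. With the replicate block it was 3, but the numbers pair no samples. The share of all genes called was 23.2% with GC-bin centring, 36.4% from the deposited table, 48.7% with the random block (slide correlation -0.168), 69.9% with array weights and 15.4% with the replicate block. The deposited table's scaling moved the median of all genes to 0.30, with 0.87 for the members. Array weights, from 0.0396 to 9.1, also gave, with the share of all genes in parentheses, 40 called at 1/25 (47.4%), 31 at 1/5 (42.3%) and 3 at 1 (15.3%) for 24 h against untreated. They gave 49 at 1/25 (51.5%), 33 at 1/5 (41.6%) and 15 at 1 (45.7%) for 24 h against 6 h, 20 for 1 against 1/25 (25.1%), 19 for the interaction (10.5%) and 62 among 7 groups (77.7%). The random block gave 33 at 1/5 for 24 h against untreated (34.3%), 46 at 1/5 for 24 h against 6 h (46%) and 47 among 7 groups (49%). The cause was not tested.

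The members' median at 1/5 for 24 h against untreated was 0.26 with quantile normalization, 0.22 with the covariate and 0.18 with only arrays of at least 80%, and for 24 h against 6 h at 1/5 it was 0.33, 0.18 and 0.19 in that order. Over concentrations the members' median, 0.48 in the main fit, was 0.15 with quantile normalization and 0.12 with the covariate. It was 0.22 with cyclic loess, 0.21 with only arrays of at least 80% and 0.67 with GC-bin centring. The median of all genes in these 5 fits was 0.02, -0.00, -0.00, -0.06 and 0.12 in that order. With single arrays left out, the count over concentrations ran from 1 to 38 and the members' median from 0.26 to 0.59. At 1/5 for 24 h against untreated the count ran from 0 to 43 and the median from 0.38 to 1.39, and for 24 h against 6 h at 1/5 from 0 to 41 and from 0.37 to 1.43. The test among 7 groups ran from 0 to 11. Elsewhere the count stayed at 0 in these refits. The medians there ran from -0.11 to 0.06, -0.03 to 0.01 and -0.07 to 0.03 for 6 h at 1/25, 1/5 and 1, and from 0.34 to 0.57 and -0.23 to 0.05 for 24 h at 1/25 and 1, each against untreated. They ran from 0.36 to 0.61 at 1/25 and -0.15 to 0.13 at 1 for 24 h against 6 h, from -0.34 to -0.20 for 1 against 1/25, and from -0.63 to -0.32 for the interaction. Of values for named members, 1142 kept direction and side of the threshold, 62 gained a call and 150 lost one. Saturation bounds the differences of bright members.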

Other observations

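A few features outside the rule were looked at after their values were seen. Sdhb, the iron-sulfur subunit of complex II, is named Sdhb_predicted in the array files and was not matched. It averaged 1.78 ± 0.69 at 24 h and 1.26 ± 0.34 at 6 h (SD, n = 9 each), and its change of 0.52 ± 0.24 did not pass in limma (adjusted p = 0.116). The array also held 10 probes for a segment of mitochondrial DNA with tRNA and cytochrome oxidase genes. Of these 9 were higher at 24 h than at 6 h, with a median difference of 0.61 and a range from -0.39 to 1.02. Of all genes 45.4% had a change above 0. Among the 10 probes 9 were saturated on at least 1 array. For 1 saturated on all 20 arrays the difference of 0.45 carries no direction. The SD of the 10 probes ran from 0.71 to 2.63 at 24 h and from 0.15 to 0.67 at 6 h.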
